A study of Homo sapiens with 4 samples.

Results

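The S100 and annexin genes are considered here in cells labelled HepG2, with and without a knockout of ZCCHC4. HepG2 is a human cell line established from a liver tumor, and ZCCHC4 encodes an RNA-binding protein that methylates ribosomal RNA. A gene was taken as a member when its Entrez identifier carried an NCBI symbol that began with S100 and a letter or consisted of ANXA and a number. The rule used no measured value. It found 26 of the 16658 genes in the table, 15 of them S100 genes and 11 annexin genes. One of the 15, S100PBP, encodes a protein that binds S100P and is not itself an S100 protein. A further 7 protein-coding RefSeq genes that fit the rule, S100A7, S100A7A, S100A8, S100A12, S100B, S100G and ANXA13, were not analysed here.

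Each group, WT and ZCCHC4 KO1, was sequenced in 2 RNA-seq libraries. The WT cells are described as wild-type HepG2 cells without treatment. The ZCCHC4 KO1 cells are described as HepG2 cells in which ZCCHC4 was knocked out by CRISPR/Cas9, also untreated. They are 1 of the knockout lines that the study made. Both groups were grown in DMEM with fetal bovine serum. No source used here says whether the 2 libraries of a group came from separate cultures, so the p-values measure the spread between these libraries, which may be technical.

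S100 proteins are small calcium-binding proteins with EF-hand motifs. Most of them act as dimers that open on binding calcium and then dock on target proteins, in the cytoplasm or, once released, on receptors such as AGER. Annexins bind phospholipid membranes when calcium rises, and take part in membrane repair, vesicle traffic, and the organization of actin beneath the membrane. The families meet in defined pairs. S100A10 joins ANXA2, S100A11 binds ANXA1, and S100A6 binds ANXA11. In the liver, hepatocytes express few of the S100 genes at high levels, while bile duct epithelium and many tumors express several.

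The values are FPKM, that is, fragments scaled to transcript length and to the total of mapped fragments, so levels of different genes can be compared per length. FPKM values carry no read totals, and the depth in reads is unknown. The FPKM of all genes summed to between 512417 and 565199 per library. ZCCHC4 was at 7.22 and 5.44 FPKM in WT and at 1.08 and 2.29 FPKM in ZCCHC4 KO1 (log2 fold change -1.48, adjusted p = 0.0448 from limma). Of 20 defining markers of hepatocytes, 13 were listed, and 12 of these were too low to be tested. The other, CPS1, was at 275 and 245 FPKM in WT and at 128 and 179 FPKM in ZCCHC4 KO1. AFP was at 0 and 0.05 FPKM in WT and at 0 in both ZCCHC4 KO1 libraries. The keratin genes KRT7, KRT8 and KRT18 were between 1294 and 3602 FPKM. Other genes of simple epithelium were low in every library, with EPCAM, KRT19 and SOX9 at no more than 0.11 FPKM. CDH1 was at no more than 0.60 FPKM and CLDN4 at no more than 2.79 FPKM. Whether the cells match the HepG2 label was not tested. Replicates of a group differed with transcript GC content, in opposite directions in WT and ZCCHC4 KO1.

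The signal of each family came mostly from a few members. The 15 S100 genes made up 0.570% and 0.601% of the summed FPKM in WT, and for ZCCHC4 KO1 the shares were 0.600% and 0.487%. The 11 annexin genes made up 0.328% in both WT libraries, and for ZCCHC4 KO1 the shares were 0.251% and 0.302%. The 3 highest S100 genes, S100A6, S100A11 and S100A4, held between 76.3% and 79.5% of the S100 signal in each library. The 3 highest annexin genes, ANXA2, ANXA5 and ANXA11, held between 80.2% and 85.6% of the annexin signal.

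The 7 members highest in mean FPKM were S100A6, S100A11, S100A4, S100A10, S100P, ANXA2 and ANXA5. At the other end, 5 S100 genes (S100A1, S100A5, S100A9, S100A14 and S100Z) and 2 annexin genes (ANXA9 and ANXA10) did not reach the limit for testing, an FPKM of 1 in at least 2 libraries. These 5 S100 genes lay between 0 and 0.79 FPKM and these 2 annexin genes between 0 and 0.45 FPKM. S100A9, a subunit of the calprotectin of myeloid cells, was listed at 0 in 3 libraries and at 0.09 FPKM in ZCCHC4 KO1 replicate 2. The remaining 19 members, 10 S100 genes and 9 annexin genes, reached an FPKM of 1 in all 4 libraries and were tested.

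In ZCCHC4 KO1 cells, 1 S100 gene and 1 annexin gene were lower than in WT cells, S100A16 and ANXA8. The other 17 tested members did not pass the test. Genes were compared with limma on log2(FPKM + 1) over 10726 tested genes, and a gene was called at an adjusted p below 0.05. By this rule 2 of the 19 tested members were lower, where 4.48% of all tested genes were, and 0 members were higher, where 1.5% of all tested genes were. At an unadjusted p below 0.05, 4 members were lower, where 13.9% of all tested genes were, and 0 higher, where 8.96% were. The median log2 fold change was -0.09 for the 10 S100 genes and -0.35 for the 9 annexin genes, beside -0.03 for all tested genes. Without S100PBP, the median of the other 9 S100 genes was -0.01. These RNA measurements come from bulk cells, so fewer cells of a kind and less RNA per cell cannot be told apart.

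S100A16, an S100 protein present in many tissues, showed the largest change in its family. It stood at 176 and 194 FPKM in WT and at 74.3 and 61.5 FPKM in ZCCHC4 KO1. Each ZCCHC4 KO1 value was far below each WT value, so the groups did not overlap. The mean was 184.7 ± 12.5 FPKM in WT and 67.9 ± 9.06 FPKM in ZCCHC4 KO1 (SD, n = 2 each), that is, 36.8% of the WT level. The log2 fold change was -1.43 (standard error 0.149, 95% interval -1.80 to -1.07, adjusted p = 0.00962 from limma). With each library left out in turn, its log2 fold change lay between -1.57 and -1.30.

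ANXA8, an annexin first described as an anticoagulant and found on late endosomes, fell further. By GENCODE it lies on chromosome 10 from 47460162 to 47484158 (GRCh38), on the minus strand. It stood at 26.8 and 26.3 FPKM in WT and at 7.11 and 8.09 FPKM in ZCCHC4 KO1. The replicates were close in both groups and the groups were wide apart. The mean was 26.6 ± 0.347 FPKM in WT and 7.60 ± 0.693 FPKM in ZCCHC4 KO1 (SD, n = 2 each), that is, 28.6% of the WT level. The log2 fold change was -1.68 (standard error 0.163, 95% interval -2.09 to -1.28, adjusted p = 0.00800 from limma). ANXA8 has a near-identical copy on the same chromosome, ANXA8L1, so reads could be divided between the copies in more than one way and the value of either alone is uncertain. ANXA8L1 is no member by the rule. It stood at 12.7 and 16.7 FPKM in WT and at 2.36 and 3.44 FPKM in ZCCHC4 KO1, and was lower as well (log2 fold change -2.01, adjusted p = 0.0136 from limma). The sum of both copies depends less on that division, and it came to 39.5 and 43.0 FPKM for WT and to 9.47 and 11.5 FPKM for ZCCHC4 KO1. In ZCCHC4 KO1 the sum was 25.5% of its WT level, a log2 fold change of -1.88 on the same scale.

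Levels of genes typical of other cells were read beside these falls. Of 8 genes of fibroblasts or mesenchyme, 7 were listed and 4 tested, and 2 of these, COL1A1 and COL3A1, were lower. The list summed to 27.5 and 26.2 FPKM in WT and to 11.2 and 14.1 FPKM in ZCCHC4 KO1, with COL1A2 and THY1 at no more than 0.04 FPKM. The tested members LUM and PDGFRB were not called, with log2 fold changes of 0.49 and -0.41, and DCN was at 0.91 and 0.82 FPKM in WT and listed at 0 in both ZCCHC4 KO1 libraries. Of 11 squamous epithelial genes, 6 were listed, none was tested, and the highest value was 0.67 FPKM. Of 9 myeloid genes, 7 were listed and 3 tested, and CSF1R was lower, from 1.09 and 1.37 FPKM to 0.05 and 0.07 FPKM. The myeloid list summed to 17.3 and 19.3 FPKM in WT and to 13.4 and 12.8 FPKM in ZCCHC4 KO1, and PTPRC was at no more than 0.12 FPKM in any library. Of 8 genes of simple epithelium, 4 were tested and limma called 0, with 3 higher and 0 lower at an unadjusted p below 0.05. That list summed to 5245 and 6097 FPKM in WT and to 9263 and 7072 FPKM in ZCCHC4 KO1. In it EPCAM, KRT19 and SOX9 were at or near 0, and CDH1 was at no more than 0.60 FPKM. Of 6 genes of melanocytes or glia, 4 were listed, none was tested, and the highest value was 0.53 FPKM. The part of any of these in the falls of S100A16 and ANXA8 was not tested.

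**Figure D1:**
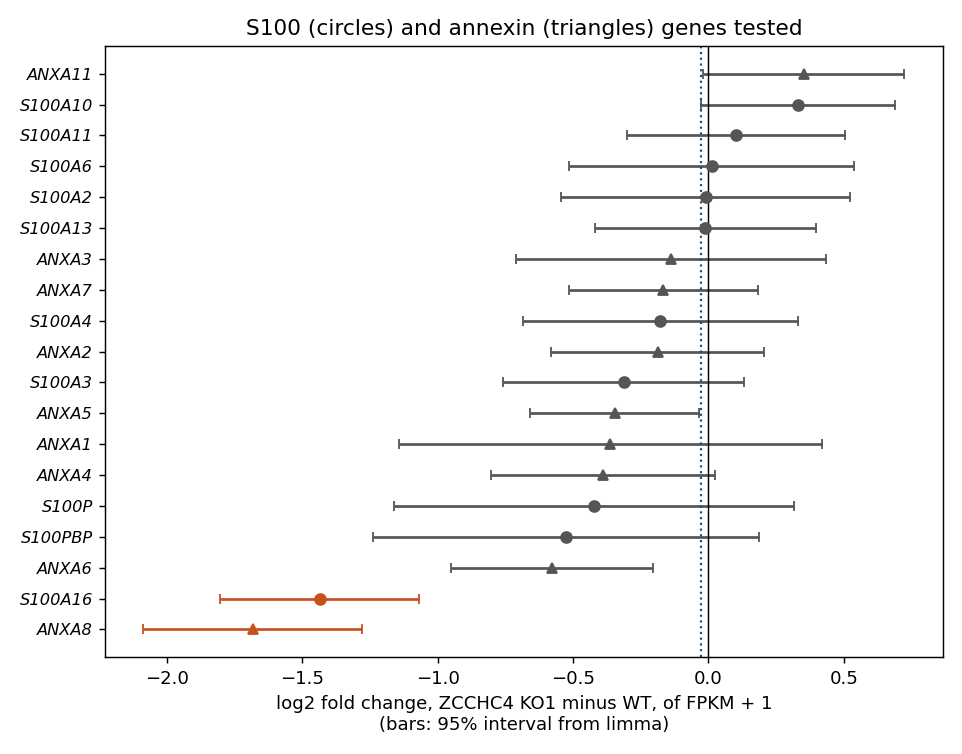
Log2 fold change of FPKM + 1 between ZCCHC4 KO1 and WT cells for the 19 tested members, with 95% intervals from limma. Circles are S100 genes, triangles annexin genes, orange marks an adjusted p below 0.05 and the dotted line is the median of all tested genes, -0.03. S100A16 at -1.43 and ANXA8 at -1.68 lie apart from the other 17 members, which lie between -0.58 and 0.35.

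S100A16 lies in the S100 cluster of chromosome 1 and was the 1 tested gene of that cluster to be called. Of the 14 listed S100 genes other than S100PBP, 12 lie on chromosome 1, and 10 of these lie between 153357854 and 153634361 (GRCh38). S100A16 runs from 153606883 to 153613137 on the minus strand, and S100A14 starts 1118 bases beyond its end. S100A14 was at 0.79 and 0.65 FPKM in WT and at 0.72 and 0.65 FPKM in ZCCHC4 KO1, too low to be tested. On the side of S100A14, the next tested gene is S100A13, a protein that takes part in the release of growth factors without a signal peptide. S100A13 was at 58.1 and 71.8 FPKM in WT and at 69.5 and 59.0 FPKM in ZCCHC4 KO1, with a log2 fold change of -0.01. On the other side lies S100A2, at 7.24 and 8.27 FPKM in WT and at 8.92 and 6.59 FPKM in ZCCHC4 KO1, likewise with a log2 fold change of -0.01. For both of these genes the groups overlapped. S100A13, on the minus strand, overlaps S100A1, on the plus strand, so their reads may not be told apart where the counting was not by strand. S100A4 overlaps S100A5 by their RefSeq spans, and by GENCODE the span of S100A4 also holds S100A3. All of these lie on the minus strand, so counting by strand would not separate their reads where they overlap.

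In the stretch from 151402724 to 153958612 of chromosome 1, which holds 24 tested genes with 8 genes on each flank of the S100 genes, S100A16 was the 1 gene called lower and 0 were called higher. Beyond this stretch, RAB13, which starts at 153981650, was also lower and is described with the companion genes. The other 7 S100 genes there had log2 fold changes between -0.31 and 0.33. The 16 tested genes of other families lay between -0.64 and 0.82, with a median of -0.01. The nearest 20 tested genes that are no members all lay on the same side of S100A16, between 153634066 and 154558662. Their median was -0.03, with 14 lower and 6 higher, and 1 was called lower. Around ANXA8 on chromosome 10, the nearest 20 tested genes, with ANXA8L1 left out, lay between 43385618 and 51699595. They were found from the RefSeq span of ANXA8, which is longer than the GENCODE span given above. Their median log2 fold change was -0.04. Of these 20, 12 were lower and 8 higher, and 2 were called lower.

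The promoters of S100A16 are printed because it is the called member of the cluster, and those of S100A6 and ANXA2 because they are the most abundant members of each family and were not called. RefSeq promoter windows for GRCh38.p14, from 250 bases before to 50 bases after a start, were matched for 25 of the 26 members, all but ANXA8. Capitals mark 4 motifs searched on both strands, namely the TATA box TATAAA, the CCAAT box CCAAT, the GC box GGGCGG and the AP-1 site TGANTCA, which reads the same on both strands apart from its middle base. ATTGG is the CCAAT box on the other strand. GC boxes can overlap each other. All 4 windows lie on the minus strand and are written 5′ to 3′. They are S100A16 upstream window, chr1:153613088-153613387, S100A16 internal window, chr1:153609306-153609605, S100A6, chr1:153535942-153536241, and ANXA2, chr15:60397937-60398236.
S100A16 upstream: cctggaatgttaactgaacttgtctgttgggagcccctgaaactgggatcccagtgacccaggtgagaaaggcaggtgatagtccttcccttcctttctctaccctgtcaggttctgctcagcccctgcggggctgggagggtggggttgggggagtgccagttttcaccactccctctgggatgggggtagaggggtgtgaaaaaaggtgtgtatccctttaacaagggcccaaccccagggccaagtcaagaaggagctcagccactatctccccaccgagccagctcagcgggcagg
S100A16 internal: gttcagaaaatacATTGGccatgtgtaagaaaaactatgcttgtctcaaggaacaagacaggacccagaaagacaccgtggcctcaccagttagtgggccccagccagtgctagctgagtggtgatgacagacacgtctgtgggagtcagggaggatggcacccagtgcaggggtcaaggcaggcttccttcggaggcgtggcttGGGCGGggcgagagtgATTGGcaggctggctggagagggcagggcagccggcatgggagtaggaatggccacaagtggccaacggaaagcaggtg
S100A6: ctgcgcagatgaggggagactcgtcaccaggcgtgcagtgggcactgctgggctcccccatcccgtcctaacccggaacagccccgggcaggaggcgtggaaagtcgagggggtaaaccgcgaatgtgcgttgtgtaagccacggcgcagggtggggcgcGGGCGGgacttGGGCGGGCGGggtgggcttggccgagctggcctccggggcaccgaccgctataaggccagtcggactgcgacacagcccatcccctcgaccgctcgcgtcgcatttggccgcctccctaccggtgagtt
ANXA2: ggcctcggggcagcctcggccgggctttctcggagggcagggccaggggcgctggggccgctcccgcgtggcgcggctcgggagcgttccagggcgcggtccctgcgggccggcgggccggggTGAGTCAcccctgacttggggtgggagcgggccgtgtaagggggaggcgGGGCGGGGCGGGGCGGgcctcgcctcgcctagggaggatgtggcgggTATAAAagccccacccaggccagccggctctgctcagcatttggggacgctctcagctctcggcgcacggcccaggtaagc

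The upstream window of S100A16 held none of the 4 motifs and 3 CpG dinucleotides, where the median over all promoter windows was 14. Its internal window held 1 GC box, 2 CCAAT boxes on the other strand and 8 CpG dinucleotides. The window of S100A6 held 3 GC boxes and 31 CpG dinucleotides, and that of ANXA2 held 3 GC boxes, 1 TATA box, 1 AP-1 site and 32 CpG dinucleotides. Of 35116 promoter windows of this length, 45% held a GC box, 34.6% a CCAAT box, 11.5% a TATA box and 7.71% an AP-1 site. Of the 36 windows of the members, 16 held a GC box, 10 a CCAAT box, 9 a TATA box and 5 an AP-1 site. Which start is used in these cells was not tested.

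The most abundant S100 genes did not pass the test. S100A6, also called calcyclin, was at 858 and 966 FPKM in WT and at 1092 and 772 FPKM in ZCCHC4 KO1. The ZCCHC4 KO1 libraries lay on either side of the WT libraries, and the log2 fold change was 0.01 (standard error 0.213, 95% interval -0.51 to 0.54, adjusted p = 0.982 from limma). S100A11, which also regulates keratinocyte growth, was at 701 and 766 FPKM in WT and at 857 and 722 FPKM in ZCCHC4 KO1, with a log2 fold change of 0.10 (standard error 0.163, 95% interval -0.30 to 0.51, adjusted p = 0.770 from limma). S100A4, a binding partner of nonmuscle myosin known for its association with metastasis, was at 668 and 738 FPKM in WT and at 738 and 522 FPKM in ZCCHC4 KO1. Its log2 fold change was -0.18 (standard error 0.206, 95% interval -0.69 to 0.33, adjusted p = 0.675 from limma). For all of these genes the groups overlapped.

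S100A10 and S100P followed in level. S100A10, which has lost calcium binding and stays in the open form, was at 211 and 230.3 FPKM in WT and at 301 and 256 FPKM in ZCCHC4 KO1. Both ZCCHC4 KO1 libraries were above both WT libraries, but the log2 fold change of 0.33 did not pass the test (standard error 0.145, 95% interval -0.03 to 0.69, adjusted p = 0.248 from limma). S100P, first found in placenta, was at 231 and 246 FPKM in WT and at 245 and 129 FPKM in ZCCHC4 KO1. Its lower mean in ZCCHC4 KO1 came from replicate 2 alone, and the log2 fold change was -0.42 (standard error 0.299, 95% interval -1.16 to 0.32, adjusted p = 0.472 from limma). Without ZCCHC4 KO1 replicate 2 it was 0.04, and without ZCCHC4 KO1 replicate 1 it was -0.89 and past the threshold.

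The low S100 genes that were tested were S100A2, S100A3, a protein of the hair cuticle, and S100PBP. S100A2, whose groups overlapped, is described above with its cluster. S100A3 was at 2.58 and 2.39 FPKM in WT and at 1.86 and 1.75 FPKM in ZCCHC4 KO1. S100PBP was at 6.28 and 5.93 FPKM in WT and at 2.80 and 5.40 FPKM in ZCCHC4 KO1. In S100A3 and S100PBP the groups did not overlap, yet neither passed the test. Their log2 fold changes were -0.31 and -0.53, with adjusted p = 0.373 and 0.350 from limma. Without ZCCHC4 KO1 replicate 2, S100PBP passed the threshold at a log2 fold change of -0.90.

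Of the tested annexins, 8 had a lower mean in ZCCHC4 KO1 and 1 a higher one, and ANXA8 alone passed the test. Of all 10726 tested genes, 5708 had a log2 fold change below 0 and 5018 above 0. Among the 8 annexins, ANXA1, ANXA3 and ANXA7 changed sign in at least 1 other setting. In 6 of the 9 tested annexin genes every ZCCHC4 KO1 value was below every WT value, in 1 every value was above and in 2 the groups overlapped. Over all tested genes, 28.5% lay below in this way and 23.1% above. For the 10 tested S100 genes the counts were 3 below, S100PBP among them, 1 above and 6 overlapping. These counts carry no test.

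The members were also counted under other call rules. With a fold change of at least 2 added, 2 members were lower and 0 higher, where 3.25% and 0.932% of genes were. The study's thresholds, which ask for an FDR below 0.001 beside that fold change, were applied to the limma values. By them 0 members were called, where 0.0559% of genes were lower and 0.0186% higher. The study reports far more genes at these limits from its own gene test, which the sources used here do not name. These counts do not show what that test would call. Median ratios gave 2 lower and 0 higher (background 6.19% and 3.23%), quantile normalization 3 and 0 (6.72% and 4.34%), and removal of the GC trend 3 and 1 (13.4% and 12.5%). The replicate block gave 2 lower and 0 higher (3.31% and 0.998%). A crossed pairing of the replicates gave 9 and 2, where 27.8% of genes were called lower and 21.5% higher. With 1 library left out, 0 members were higher. Without WT replicate 1 or WT replicate 2, 2 were lower, where 2.55% and 3.35% of genes were lower and 0.904% higher in each. Without ZCCHC4 KO1 replicate 1, 3 were lower, where 4.21% of genes were lower and 1.24% higher. Without ZCCHC4 KO1 replicate 2, 4 were lower, where 9.67% of genes were lower and 5.2% higher.

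ANXA2, which binds plasminogen and membrane phospholipids at the cell surface, was the most abundant annexin. It was at 997 and 1087 FPKM in WT and at 865 and 967 FPKM in ZCCHC4 KO1. All values of ZCCHC4 KO1 were lower, with a small gap to WT, and the log2 fold change was -0.19 (standard error 0.159, 95% interval -0.58 to 0.21, adjusted p = 0.559 from limma). ANXA5, which binds phosphatidylserine, was at 257 and 277 FPKM in WT and at 211 and 208 FPKM in ZCCHC4 KO1. Its replicates were close and its groups apart, with a log2 fold change of -0.35 (standard error 0.127, 95% interval -0.66 to -0.03). The adjusted p for ANXA5 was 0.182 from limma, so it did not pass.

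ANXA11, which tethers RNA granules to lysosomes, was the 1 annexin with both ZCCHC4 KO1 libraries above WT. It was at 94.3 and 107 FPKM in WT and at 140.4 and 118 FPKM in ZCCHC4 KO1, with a log2 fold change of 0.35 (standard error 0.151, 95% interval -0.02 to 0.72, adjusted p = 0.239 from limma). With the trend on GC content removed from each library, it passed at a log2 fold change of 0.38 (adjusted p = 0.0445 from limma), where 12.5% of genes were called higher.

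ANXA6, whose core is larger than that of other annexins, was at 49.2 and 57.1 FPKM in WT and at 37.6 and 33.0 FPKM in ZCCHC4 KO1. The groups did not overlap. Its log2 fold change of -0.58 was the largest among members that did not pass (standard error 0.151, adjusted p = 0.0887 from limma). It passed after quantile normalization and after removal of the GC trend, with adjusted p = 0.0464 and 0.0139 from limma. ANXA4, an annexin of secretory epithelia, was at 12.2 and 12.8 FPKM in WT and at 9.53 and 9.13 FPKM in ZCCHC4 KO1, with a log2 fold change of -0.39. ANXA7, also called synexin, was at 51.3 and 50.7 FPKM in WT and at 41.9 and 49.1 FPKM in ZCCHC4 KO1, with a log2 fold change of -0.17.

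ANXA1 and ANXA3 varied more between replicates than between groups. ANXA1, a mediator of glucocorticoid action that signals through formyl peptide receptors, was at 111 and 78.4 FPKM in WT and at 53.5 and 97.9 FPKM in ZCCHC4 KO1. Its log2 fold change was -0.36 (standard error 0.316, 95% interval -1.14 to 0.42, adjusted p = 0.569 from limma). ANXA3 was at 82.7 and 68.3 FPKM in WT and at 54.9 and 84.7 FPKM in ZCCHC4 KO1, with a log2 fold change of -0.14 (standard error 0.232, 95% interval -0.71 to 0.44, adjusted p = 0.785 from limma). In both genes WT replicate 1 and ZCCHC4 KO1 replicate 2 were the higher libraries of their groups. Without ZCCHC4 KO1 replicate 1 the sign of both turned, to 0.07 for ANXA1 and 0.17 for ANXA3, and without ZCCHC4 KO1 replicate 2 ANXA1 was called lower.

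The families differ in GC content and length, and the spread between replicates moved with GC content. The median GC content was 53.8% over the 15 listed S100 genes and 46.7% over the 11 listed annexin genes, beside 50.1% for all tested genes. The median transcript length was 626.5 bases for these S100 genes and 1444 bases for these annexin genes, beside 1880.0 bases for all tested genes. Of the 19 tested members, 13 were higher in WT replicate 2 than in WT replicate 1 and 13 were lower in ZCCHC4 KO1 replicate 2 than in ZCCHC4 KO1 replicate 1, and 12 did both. ANXA1, with the lowest GC content of the tested members at 41.9%, moved the other way in both groups. Across the 19 members, which share their libraries, GC content had a Spearman correlation of 0.533 (WT) and -0.582 (ZCCHC4 KO1) with replicate 2 minus replicate 1. With the trend on GC content removed, the log2 fold changes of S100A16 and ANXA8 were -1.45 and -1.62.

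The partner pairs were compared as ratios of FPKM within each library. ANXA2 was at 4.72 times the level of S100A10 in both WT libraries and at 2.87 and 3.77 times in ZCCHC4 KO1. Both ZCCHC4 KO1 ratios were below both WT ratios, with ANXA2 lower and S100A10 higher in mean, neither of which passed the test alone. ANXA11 was at 0.110 and 0.111 times the level of S100A6 in WT and at 0.129 and 0.152 times in ZCCHC4 KO1, so these ratios did not overlap either. ANXA1 was at 0.159 and 0.102 times the level of S100A11 in WT and at 0.0624 and 0.136 times in ZCCHC4 KO1, and here the groups overlapped. The ratios were not tested, and the share of other gene pairs whose ratios separate in this way was not computed. Of single tested genes, 28.5% had both ZCCHC4 KO1 libraries below both WT libraries and 23.1% above.

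Genes that work with S100 proteins and annexins were read from 5 lists, which were chosen with earlier results of these data known. Over all lists, 114 of 211 genes were tested, 2 were higher and 9 lower, beside the 1.5% and 4.48% of all tested genes. Of 11 tested genes of the plasminogen system, which ANXA2 and S100A10 serve as a surface receptor, 0 were higher and 4 were lower, and the median of all 11 was -0.56 (log2). The 4 were ITGB1, SERPINE2, LRP1 and PLAUR. PLAUR, the urokinase receptor, was at 40.8 and 40.3 FPKM in WT and at 22.6 and 19.0 FPKM in ZCCHC4 KO1 (log2 fold change -0.93, adjusted p = 0.0280 from limma). SERPINE2, an inhibitor of serine proteases, was at 11.7 and 11.3 FPKM in WT and at 4.13 and 4.11 FPKM in ZCCHC4 KO1 (log2 fold change -1.29, adjusted p = 0.0194 from limma). LRP1, an endocytic receptor, was at 3.48 and 3.72 FPKM in WT and at 0.85 and 0.99 FPKM in ZCCHC4 KO1 (log2 fold change -1.26, adjusted p = 0.0201 from limma). ITGB1, an integrin subunit, was at 167 and 105 FPKM in WT and at 32.9 and 53.9 FPKM in ZCCHC4 KO1 (log2 fold change -1.63, adjusted p = 0.0410 from limma). In all 4 of these genes the groups did not overlap, but they are named because they were called, so this adds no support. PLAT, tissue plasminogen activator, was at 1.94 and 1.67 FPKM in WT and at 0.79 and 0.64 FPKM in ZCCHC4 KO1 and did not pass (adjusted p = 0.0798 from limma). At an unadjusted p below 0.05, 7 genes of this list were lower and 0 higher, where 13.9% and 8.96% of all tested genes were. These shares also stand beside the counts of the lists that follow, and the lists were not tested as sets.

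Of 32 tested partners and receptors, 1 was higher and 0 lower by limma, with 1 and 4 at an unadjusted p below 0.05, and the median of the list was -0.07 (log2). The higher gene was CD36, a scavenger receptor, at 1.29 and 0.61 FPKM in WT and at 7.79 and 13.1 FPKM in ZCCHC4 KO1 (log2 fold change 2.54, adjusted p = 0.0142 from limma). AHNAK, a scaffold that binds the complex of ANXA2 and S100A10, was at 34.4 and 29.1 FPKM in WT and at 32.2 and 41.7 FPKM in ZCCHC4 KO1. MYH9, the myosin heavy chain that S100A4 binds, was at 94.4 and 109 FPKM in WT and at 115 and 106 FPKM in ZCCHC4 KO1. Neither gene passed the test, and the groups overlapped in both. AGER, the receptor for released S100 proteins, stayed at or below 0.87 FPKM in every library, and the formyl peptide receptors FPR1 and FPR2 were not analysed here.

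Of 34 tested calcium sensors of other EF-hand families, 1 was higher and 1 lower, and the median of the list was -0.15 (log2). TESC, a calcium-binding regulator of sodium-proton exchange, was higher, at 8.11 and 8.90 FPKM in WT and at 28.2 and 23.5 FPKM in ZCCHC4 KO1 (log2 fold change 1.49, adjusted p = 0.0128 from limma). CALU, a calcium-binding protein of the secretory pathway, was lower, at 92.6 and 79.3 FPKM in WT and at 33.8 and 48.1 FPKM in ZCCHC4 KO1 (log2 fold change -1.07, adjusted p = 0.0413 from limma). Of 26 tested genes of membrane repair and traffic, 3 were lower and 0 higher by limma, with 4 and 3 at an unadjusted p below 0.05, and the median was -0.12 (log2). SYTL4, a granule adaptor, was at 2.75 and 2.30 FPKM in WT and at 0.41 and 0.69 FPKM in ZCCHC4 KO1 (log2 fold change -1.19, adjusted p = 0.0282 from limma). SMPD1, acid sphingomyelinase, was at 6.29 and 6.67 FPKM in WT and at 2.45 and 2.20 FPKM in ZCCHC4 KO1 (log2 fold change -1.17, adjusted p = 0.0277 from limma). CAVIN3, a caveolar coat protein, was at 29.7 and 37.6 FPKM in WT and at 18.3 and 16.5 FPKM in ZCCHC4 KO1 (log2 fold change -0.91, adjusted p = 0.0435 from limma). Of 14 tested neighbours in or near the epidermal differentiation complex of chromosome 1, 1 was lower and 0 higher by limma, with 2 and 1 at an unadjusted p below 0.05, and the median was -0.02 (log2). It was RAB13, a small GTPase of tight junctions, at 43.8 and 46.0 FPKM in WT and at 21.1 and 24.6 FPKM in ZCCHC4 KO1 (log2 fold change -0.95, adjusted p = 0.0257 from limma).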

How the data were processed

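RNA of WT and ZCCHC4 KO1 cells labelled HepG2 was sequenced, with 2 libraries per group. The authors aligned reads to GRCh38 with Bowtie2 and estimated expression with RSEM, and the deposited values are FPKM, 1 column per library. Software versions, read filters and the annotation are not given in the sources used here. The labels and the study's supplement name different sequencing platforms. All columns carried a sample title.

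FPKM values were used as deposited. Genes with an FPKM of at least 1 in at least 2 libraries (10726 genes) entered a linear model of log2(FPKM + 1) in limma (version 3.58.1, R version 4.3.3; lmFit, trended eBayes, Benjamini-Hochberg adjustment over these genes) and were called at an adjusted p below 0.05. Only the limma fit was tried on simulated data, whose noise was independent between libraries and lacked the GC trend seen here. That trial does not cover the other steps. A fold change on this scale understates the change of low genes. Symbols, gene spans and promoter windows came from RefSeq (GRCh38.p14), and 16368 of 16658 identifiers had a symbol. GC content and length came from GENCODE transcripts and covered 98.4 percent of tested genes.

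The members, the companion and marker lists and the tests were chosen with earlier results of these data known. Full statistics are given for called members and for the 5 most abundant members of each family, and of the companion lists for called genes (up to 3 per direction) and for direct binding partners. ITGB1, SERPINE2, LRP1 and PLAUR are all named since the list has 4 called genes. The further neighbours and members were named for their position or after their values were seen. As alternatives, the pseudocount was set to 0.1, the filter was dropped or raised to an FPKM of 5, values were rescaled by median ratios or quantiles, the GC trend was removed (natural spline with 4 degrees of freedom), the eBayes trend was dropped, replicate numbers were used as a block, other thresholds were applied, and each library was left out in turn.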

Additional observations from a re-analysis of the deposited data

How the results depend on the processing

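S100A16 and ANXA8 remained called lower with a pseudocount of 0.1, no filter, a minimum FPKM of 5, median ratios, quantile normalization, GC removal, eBayes without a trend, the replicate block and each library left out. They also passed at a fold change of at least 2. With the study's thresholds (FDR below 0.001) applied to the limma values, 0 members were called. Members called lower ranged from 2 to 4 with 1 library left out, with 4 without ZCCHC4 KO1 replicate 2, where the share of all genes called lower also rose, from 4.48% to 9.67%, and 0 were called higher in each. With GC removal 1 member was called higher. The replicate block gave 0 members higher and 2 lower, and changed no call among the members. Samples share only a replicate number, and replicate 2 minus replicate 1 in WT correlated with that in ZCCHC4 KO1 at -0.787 (Pearson, over genes). A crossed pairing was added once the data had been seen, and under it 2 members were called higher and 9 lower, and 17 companion genes higher and 43 lower.

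Against 2 companion genes higher and 9 lower, 1 and 1 were called with no filter, 14 and 23 with GC removal, and 0 and 0 at the study's thresholds, while quantile normalization gave 4 higher. With 1 library left out, 2 to 8 were higher and 3 to 17 lower, with 3 without WT replicate 1, 4 without WT replicate 2, and 8 and 17 without ZCCHC4 KO1 replicate 2. ZCCHC4 did not pass with a pseudocount of 0.1 (-1.92), with no filter (-1.48) or without ZCCHC4 KO1 replicate 1, and ranged from -1.81 to -1.15 with 1 library left out. For all of these the cause was not tested. Where 1 library was left out, the remaining library of its group was assumed to vary like the other group. Those fits and the paired fits had 1 residual degree of freedom. In the paired fits and in those without a WT library, limma gave no weight to each gene's own spread. Calls from these fits therefore say less than calls from the main fit.

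Signs turned for some members that were not called. With GC removal ANXA3 was at 0.026, ANXA7 at 0.0012, S100A13 at 0.030, S100A2 at 0.044 and S100A6 at -0.013. With median ratios S100A13 was at 0.065 and S100A2 at 0.060, and with quantile normalization S100A2 was at 0.097 and S100A6 at -0.024. With 1 library left out, values ranged from -0.79 to 0.067 for ANXA1, -0.45 to 0.17 for ANXA3, -0.020 to 0.23 for S100A11, -0.16 to 0.14 for S100A13, -0.20 to 0.18 for S100A2, -0.43 to 0.071 for S100A4, -0.24 to 0.26 for S100A6 and -0.89 to 0.039 for S100P.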
